A study of Mus musculus with 6 samples.

Results

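Processed pseudogenes are copies of mRNAs that were reverse transcribed and inserted back into the genome, mostly without introns and without the promoter of the parent gene. Short, highly transcribed genes such as those of ribosomal proteins have left many such copies. A copy inside an intron is transcribed as part of the host gene's precursor RNA when both lie on the same strand, and a copy that is nearly identical to its parent can share sequencing reads with it.

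The account covers 165 processed pseudogenes in naive CD4 T cells, the helper-lineage T cells that have not yet met antigen. They were chosen by their summed read counts: genes of that GENCODE vM21 class whose counts on their own strand summed to 100 or more over the 6 libraries, out of 6453 processed pseudogenes, 2407 with any count, and 46983 genes in all. Of the 165, 20 carry a ribosomal protein name (Rpl or Rps) and 145 do not. The summed count that chose them ran from 100 to 3736 with a median of 202. Just inside the threshold were Gm20691 with a summed count of 100 and Gm8738 and Rps19-ps3 with 101 each, and just outside it were Gm12987 with 98, Gm13509 with 97 and Gm9522 with 96. The summed count did not use genotype, but it ran over 2 control and 4 Cmtr1 cKO libraries. Members higher in Cmtr1 cKO therefore reached it more easily, and the choice leans toward rises. All 165 passed the filter on low counts.

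RNA depleted of ribosomal RNA came from cells of male mice, sorted from lymph nodes on TCRb, CD4 and CD62L with CD44 and DAPI negative. Both groups carry floxed Cmtr1 alleles. The 2 control libraries have the genotype Cmtr1 fl/fl without CD4cre, and the 4 libraries labelled Cmtr1 cKO have Cmtr1 fl/fl with CD4cre, a Cre transgene active in the T lineage from the thymus on, so the labels do not make the deletion specific to naive cells. CMTR1 methylates the ribose of the first nucleotide after the mRNA cap. The labels give no age and tie no library to a mouse of its own. The p-values therefore rest on the spread between samples that may be technical repeats. In bulk samples, fewer cells of a type and less RNA per cell cannot be told apart.

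Gene counts per library ran from 9513874 to 11949838. The count of Cmtr1 did not check the labels. Its level was 11.2 and 11.4 CPM (counts per 1000000 after TMM scaling) in the controls and 16.01, 19.8, 14.6 and 7.57 in Cmtr1 cKO 1 to 4, with a log2 fold change of 0.36 ± 0.31 (SE; edgeR, Benjamini-Hochberg adjusted p = 0.461). Naive CD4 T cell markers (11 genes, of which Ccr7 was called lower) summed to 6663 to 7792 CPM per library. Markers of B cells (5 genes) summed to 18.7 to 37.1 CPM, of myeloid cells (5 genes) to 4.56 to 18.3, of CD8 T cells (2 genes) to 17.0 to 28.7, of NK cells (3 genes, with Nkg7 called lower) to 0.846 to 2.54 and of erythroid cells (3 genes) to 0.635 to 3.79. Memory or effector markers (4 genes, with Cd44 called lower) summed to 44.1 and 38.1 CPM in the controls, against 26.2 to 32.7 in the Cmtr1 cKO libraries, and their part in the results was not tested. Of the uniquely mapped reads, 37.2% and 34.0% fell outside annotated exons in the controls and 52.3%, 51.6%, 46.7% and 38.02% in Cmtr1 cKO 1 to 4. Every Cmtr1 cKO library was above both controls, so a fit with this share as covariate cannot tell it from genotype. The share of mapped reads that had several places was 11.03% and 12.5% in the controls and 7.26%, 7.42%, 9.41% and 10.3% in Cmtr1 cKO 1 to 4.

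The sequences below are shown because, for a single parent, the copy outside same-strand genes was called lower while the copies in introns were not called and had log2 fold changes above 0, and the copies differ in how much of the parent's sequence they keep. Each is a stretch of 60 bases from the GENCODE vM21 transcripts (GRCm38), printed on the strand of the gene. Capitals in a pseudogene mark bases that differ from the parent mRNA. The first set is coding bases 214 to 273 of Rps6, a protein of the small ribosomal subunit, with Rps6-ps4 (0 differences, chr2:75191550-75191609, minus strand), Gm13785 (14 differences, chr2:92312356-92312415, plus strand) and Gm15842 (15 differences, chr5:122302528-122302587, plus strand).
Rps6: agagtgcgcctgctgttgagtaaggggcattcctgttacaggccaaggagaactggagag
Rps6-ps4: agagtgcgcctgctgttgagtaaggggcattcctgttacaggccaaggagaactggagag
Gm13785: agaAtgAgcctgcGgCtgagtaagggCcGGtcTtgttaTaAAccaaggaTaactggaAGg
Gm15842: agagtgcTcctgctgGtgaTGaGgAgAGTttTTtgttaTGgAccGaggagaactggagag
The second set is coding bases 45 to 104 of Rpl3, a protein of the large subunit, with Rpl3-ps1 (1 difference, chrX:13202616-13202675, plus strand) and Gm15712 (15 differences, chr16:43184619-43184678, plus strand).
Rpl3: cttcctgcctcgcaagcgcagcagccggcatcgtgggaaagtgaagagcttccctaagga
Rpl3-ps1: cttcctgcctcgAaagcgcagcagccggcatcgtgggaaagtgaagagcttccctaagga
Gm15712: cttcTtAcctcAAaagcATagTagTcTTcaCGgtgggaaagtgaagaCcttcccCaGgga

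As the letters show, no read from this stretch could be placed on Rps6-ps4 rather than on Rps6 by its sequence, while Gm13785, Gm15842 and Gm15712 differ from their parents at 14 or 15 of the 60 bases. A parent was assigned by sequence to 154 members, as the protein-coding gene with the best match at 70% identity or more over at least 50% of the member. Ribosomal protein genes were the parents of 64 members: the 20 named so and 44 named otherwise. Of the 165 members, 19 were identical to the parent over their full length. The share of a member's 50-base windows that occur in no other gene's transcript is called here its own sequence. Its median was 9.5% in the ribosomal protein pseudogenes and 60.04% in the others, and 22 members had none. Counts of members with little own sequence are uncertain, since reads of the parent cannot be told from theirs over the shared bases.

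By position, 83 members lay in an intron of a gene on the same strand, 78 lay outside any same-strand gene (62 over no other gene and 16 over a gene of the opposite strand), and 4 overlapped a same-strand exon. Members in introns had a median of 90.5% own sequence and those outside 21.2%. Their levels per length, averaged over the libraries, had medians of 5.27 and 5.28 CPM per kilobase of exon.

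Most ribosomal protein pseudogenes fell in the libraries labelled Cmtr1 cKO. Genes are described as called where edgeR's quasi-likelihood test gave an adjusted p below 0.05. Of the 20, 14 were called lower and 0 higher, where 6.77% of all 12748 genes tested were called lower and 4.66% higher. The median log2 fold change was -0.97, against -0.000471 over all genes tested. In 16 of 20 every Cmtr1 cKO library was below both controls, which held for 20.8% of all genes tested. Their CPM summed to 171 and 189 in the controls, against 86.8, 85.5, 95 and 110.4 in Cmtr1 cKO 1 to 4. The 81 ribosomal protein mRNA genes had a median log2 fold change of -0.95, with 78 called lower and 0 higher. The count of 14 was 5 without control 1, 2 without control 2, 10 without any one of Cmtr1 cKO 1, 2 or 3, and 5 in a fit with the percentage of reads outside exons as covariate, where the median was -0.65.

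Rps24-ps3, a copy of the small-subunit gene Rps24 (99.0% identity, 36.5% own sequence), was the most abundant of them. It had 33.2 and 31.6 CPM in the controls, against 11.2, 10.1, 13.3 and 18.9 in Cmtr1 cKO 1 to 4. All 4 Cmtr1 cKO libraries were below both controls, with Cmtr1 cKO 4 the closest to them. The means were 32.4 ± 1.2 (SD, n = 2) and 13.4 ± 3.9 (SD, n = 4), and the log2 fold change was -1.27 ± 0.20 (SE; edgeR, Benjamini-Hochberg adjusted p = 0.00336). Rps24 itself changed by -1.10 ± 0.14. The call of Rps24-ps3 did not hold without control 1 (-1.22, edgeR Benjamini-Hochberg adjusted p = 0.053).

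Rps16-ps2, identical to Rps16 over its full length and with no own sequence, had 16.5 and 16.7 CPM in the controls, against 7.87, 7.62, 8.04 and 9.81 in Cmtr1 cKO 1 to 4. The groups did not overlap, and the 2 controls were nearly equal. Its log2 fold change was -0.99 ± 0.14 (edgeR, Benjamini-Hochberg adjusted p = 0.00188), beside -1.09 for Rps16. Rps16-ps2 stayed called under every alternative run.

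Rps6-ps4 had 10.4 and 8.35 CPM in the controls, against 4.35, 3.9, 5.50 and 5.07 in Cmtr1 cKO 1 to 4. Every Cmtr1 cKO library was below both controls. It changed by -0.999 ± 0.19 (edgeR, Benjamini-Hochberg adjusted p = 0.00988) and Rps6 by -0.95 ± 0.11. Without control 1 or 2 Rps6-ps4 was not called (adjusted p = 0.13 and 0.055 by the same edgeR test).

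Rpl3-ps1 had 9.79 and 9.71 CPM in the controls, against 4.44, 4.90, 4.66 and 4.99 in Cmtr1 cKO 1 to 4. Both groups were tight and did not overlap. Its log2 fold change was -1.04 ± 0.16 (edgeR, Benjamini-Hochberg adjusted p = 0.00314) and that of Rpl3 was -1.05. The call did not hold without control 2 (edgeR, Benjamini-Hochberg adjusted p = 0.052).

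The deepest fall was that of Rpl36a-ps2, identical to the large-subunit gene Rpl36a, which had 4.11 and 3.30 CPM in the controls, against 1.203, 1.18, 1.38 and 1.72 in Cmtr1 cKO 1 to 4 (log2 fold change -1.43 ± 0.28; edgeR, Benjamini-Hochberg adjusted p = 0.0107). Rpsa-ps10, a copy of the small-subunit gene Rpsa, fell by 1.29 ± 0.18 on the log2 scale (edgeR, Benjamini-Hochberg adjusted p = 0.00150). Rpl31-ps8, Rps25-ps1, Rps10-ps2 and Rpl14-ps1 were also called, with log2 fold changes of -1.17, -1.17, -1.16 and -0.95. Each of these 6 was lower in all 4 Cmtr1 cKO libraries than in both controls, and each parent was lower too, between -0.80 for Rps25 and -1.403 for Rpl36a. None of the 6 was called in both fits that leave out 1 control.

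Among the most abundant, Rpl19-ps11 was called (-0.94 ± 0.20), though not without control 2 (-0.63), and Rps23-ps1 had -1.01 ± 0.29 and missed the threshold (edgeR, Benjamini-Hochberg adjusted p = 0.0544) with 20.3 and 23.1 CPM in the controls, against 8.24, 6.35, 12.6 and 15.8 in Cmtr1 cKO 1 to 4. Other members did not follow: Rps15a-ps6 (named after its value was seen) had a log2 fold change of 0.29 ± 0.42 and Rps19-ps3 0.12 ± 0.38, both uncalled and with overlapping groups. Rps15a-ps6 lies in an intron of Nudcd3 and has 44.8% own sequence. Rpl36a-ps2 and Rps19-ps6, also in introns, have 0% and 6.2% own sequence and log2 fold changes of -1.43 and -0.82.

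The 145 other pseudogenes moved both ways. Of these, 11 were called higher (7.6%, against 4.66% of all genes tested) and 19 lower (13.1%, against 6.77%). Among the 11 are Gm33707, Gm11510, Gm11196 and Gm13357, which reached the summed count only through the Cmtr1 cKO libraries. The 7.6% is raised by that choice and is not read as an excess. The median log2 fold change of the 145 was 0.19. At a summed count of 50 or more it was 0.26, and at 200 or more 0.13 (ribosomal protein pseudogenes -0.97 and -0.99). The median turned to -0.11 with the percentage of reads outside exons as covariate and to -0.46 over the 63 that share no same-strand gene body. All Cmtr1 cKO libraries were above both controls in 36, where this held for 18.2% of all genes tested. They were below both in another 36, where this held for 20.8% of all genes tested. The plot of fold change by parent and position shows how these split, and no test was made between the classes. Among the 78 members outside same-strand genes, of either name, 30 were called lower (38.5%) and 2 higher (2.6%), with a median of -0.65. Among the 83 in same-strand introns, 2 were called lower (2.4%) and 9 higher (10.8%), with a median of 0.59 and 73 above 0. The 9 include Gm11510, Gm11196 and Gm13357, and other intron members also reached the summed count only through the Cmtr1 cKO libraries. The 10.8%, the median and the 73 thus follow in part from the choice. With Cmtr1 cKO 1 to 4 left out in turn, all genes called higher were 272, 228, 222 and 1940. All genes called lower were 472, 435, 384 and 1940. Leaving out control 1 or control 2 gave 10 and 4 outside members called lower, and leaving out Cmtr1 cKO 1 to 4 in turn gave 22, 19, 20 and 40. Of the 145 other pseudogenes, 1 was called higher without either control, 4 without Cmtr1 cKO 1, 2 or 3, and 38 without Cmtr1 cKO 4. Those called lower were 6 and 2 without control 1 and 2, and 15, 12, 13 and 29 without Cmtr1 cKO 1 to 4.

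**Figure D1:**
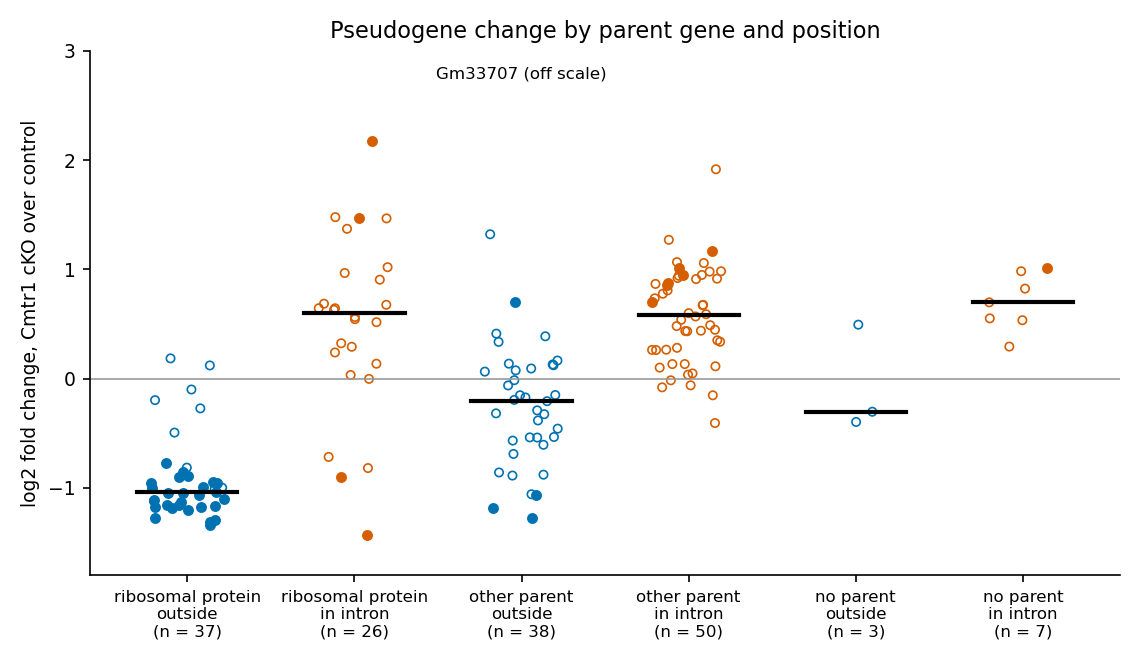
Log2 fold change (vertical axis) of each pseudogene, by parent gene and by position outside same-strand genes (blue) or in a same-strand intron (orange). Filled points were called by edgeR, bars are medians, horizontal scatter is for display, and Gm33707 lies beyond the axis. Copies of ribosomal protein genes have a median of -1.04 outside and 0.60 in introns.

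Most copies of ribosomal protein genes outside same-strand genes fell. Of 37, 27 were called lower and 0 higher, with a median of -1.04, and the parents of the same 37 had a median of -0.97 with 36 called lower. The 10 not called had log2 fold changes from -1.12 (Gm5835, parent Rpl4) to 0.19 (Gm7285, parent Rps7). In 1 of the 37 the parent was not called: Gm9385 fell by 1.07 ± 0.27 on the log2 scale (edgeR, Benjamini-Hochberg adjusted p = 0.0304) while Rpl24 had -0.04 ± 0.30. Rpl24 had only 131 counts over the 6 libraries, about 2.07 and 2.03 CPM in the group means, so its value is imprecise and does not show that its mRNA did not change. Gm9385, Gm5835 and Gm7285 are named here after their values were seen.

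Gm4332, a copy of the small-subunit gene Rps20, had 7.08 and 7.87 CPM in the controls, against 2.04, 2.99, 2.43 and 4.21 in Cmtr1 cKO 1 to 4, with no overlap (log2 fold change -1.34 ± 0.26; edgeR, Benjamini-Hochberg adjusted p = 0.0101). Gm9625, a copy of the ribosomal stalk gene Rplp0, had a log2 fold change of -1.31, Gm15772 (Rpl26) -1.21, Gm10736 (Rpl41) -1.19, Gm10288 (Rpl11) -1.17, Gm14303 (Rps29) -1.15, Gm6136 (Rpl6) -1.13 and Gm7536 (Rpl27a) -1.11, all called and all with Cmtr1 cKO libraries below both controls. Their parents had between -0.81 (Rpl11) and -1.19 (Rps29). Without control 2, edgeR called neither Gm4332 nor any of these copies. The abundant Gm13436, a copy of Rpl18, had 33.8 and 35.7 CPM in the controls, against 9.72, 15.0, 21.9 and 23.1 in Cmtr1 cKO 1 to 4. It changed by -0.998 ± 0.27, with no overlap, but was not called (edgeR, Benjamini-Hochberg adjusted p = 0.0507).

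Of the 38 members outside same-strand genes with another parent, 3 were called lower (Tpt1-ps3, Gm13456 and Gm4366) and 2 higher (Gm33707, described last, and Gm10557). These are 7.9% and 5.3%, near the 6.77% and 4.66% of all genes tested. Gm10557, named after its values were seen, had all Cmtr1 cKO libraries above both controls and a log2 fold change of 0.70 ± 0.16 (edgeR, Benjamini-Hochberg adjusted p = 0.0184), and was not called without control 1, control 2 or Cmtr1 cKO 3. Tpt1-ps3 is identical to Tpt1, which encodes the translationally controlled tumour protein, and has no own sequence. It had 58.2 and 57.5 CPM in the controls, against 20.9, 23.0, 26.0 and 31.8 in Cmtr1 cKO 1 to 4. The groups were far apart, and Cmtr1 cKO 4 was again the closest to the controls. The log2 fold change was -1.18 ± 0.13 (edgeR, Benjamini-Hochberg adjusted p = 0.000495), and Tpt1 had -1.16 ± 0.14.

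Gm13456 is a copy of Eef1a1, which encodes an elongation factor, with 96.8% identity and 42.6% own sequence. It had 30.6 and 30.7 CPM in the controls, against 12.2, 10.4, 10.2 and 17.6 in Cmtr1 cKO 1 to 4. The groups did not overlap. Its log2 fold change of -1.27 ± 0.18 (edgeR, Benjamini-Hochberg adjusted p = 0.00202) stood beside -1.28 ± 0.17 for Eef1a1. Further copies of Eef1a1 outside same-strand genes, named after their values were seen, differed from each other. Gm6767 (74.0% own sequence) had -1.06 ± 0.32 and was not called. Gm6548 (75.9% own sequence) had 0.17 ± 0.13, also not called, with every Cmtr1 cKO library above both controls. The third member called lower, Gm4366, a copy of the elongation factor gene Eef1g named after its values were seen, had -1.06 beside -0.88 for Eef1g. Tpt1-ps3 and Gm13456 stayed called under every alternative run.

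Over all 38 members outside same-strand genes with another parent, the median was -0.20 and that of their parents -0.23. The abundant Gm7964, a copy of the RNA-binding protein gene Hnrnpk, had 28.8 and 27.5 CPM in the controls, against 24.3, 25.9, 28.7 and 32.5 in Cmtr1 cKO 1 to 4. The groups overlapped, the log2 fold change was -0.01 ± 0.12, and Hnrnpk had -0.03. Gm12250, for which no parent was kept, had 37.2 and 32.5 CPM in the controls, against 24.6, 23.7, 23.1 and 34.3 in Cmtr1 cKO 1 to 4, with -0.40 ± 0.15 (edgeR, Benjamini-Hochberg adjusted p = 0.106). RefSeq's gene table (GRCm38.p6) lists Gm12250 as protein-coding. Over the 72 members outside same-strand genes with a tested parent, Gm33707 left out, member and parent fold changes had a Pearson correlation of 0.70 and a Spearman correlation of 0.67. These values share libraries and, in many pairs, sequence. With Gm33707, over 73 members, they were 0.40 and 0.68.

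**Figure D2:**
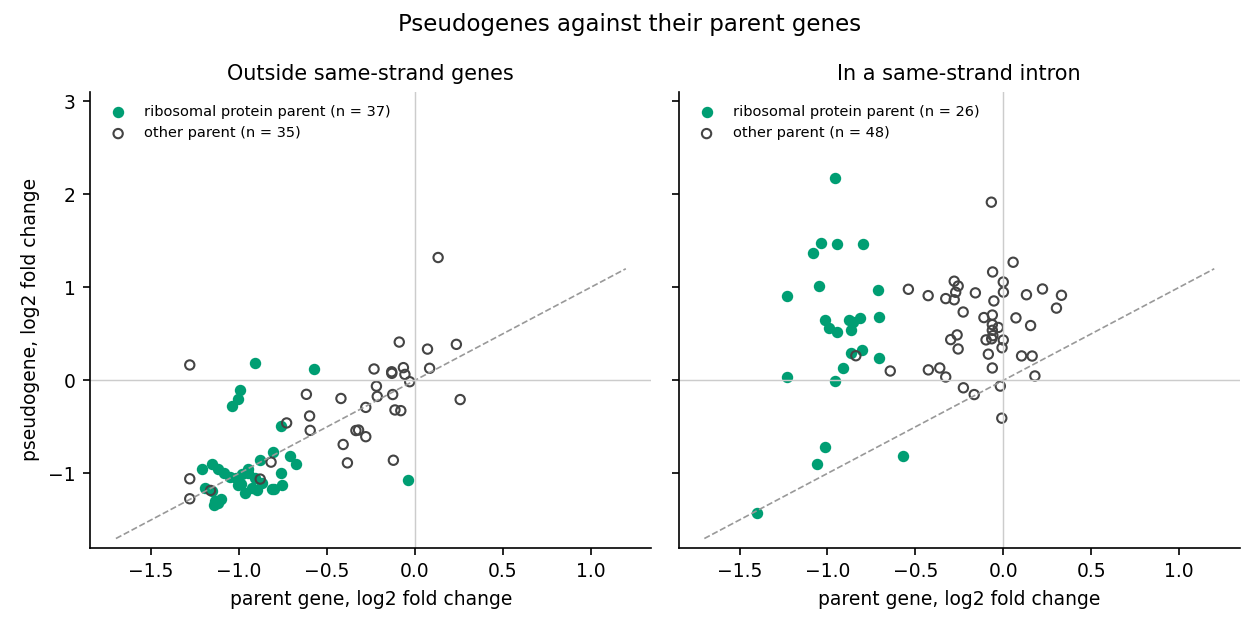
Log2 fold change of each pseudogene (vertical axis) against that of its parent gene (horizontal axis), outside same-strand genes on the left, without Gm33707, and in same-strand introns on the right. The dashed line marks equal change. On the left many points lie near the line and some lie far above it, such as Gm6548 (0.17, parent Eef1a1 -1.28). On the right 69 of 74 pseudogenes lie above it.

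Members in same-strand introns were mostly higher, relative to the controls, than their parents. Over 74 with a tested parent, the Pearson correlation was 0.12 and the Spearman correlation 0.06, and 69 were above the parent. Copies of ribosomal protein genes in introns (26) had a median of 0.60, although the parents of all 26 were called lower (median -0.95). Of these copies, 2 were called in each direction (7.7%, beside 4.66% higher and 6.77% lower over all genes tested). Gm11510 among them, and Gm11196 among the copies of other genes, reached the summed count only through the Cmtr1 cKO libraries. The 50 copies of other genes in introns had a median of 0.58, with 6 called higher (12%) and 0 lower, and their parents a median of -0.06. The same held against their hosts: over 80 with a tested host, 71 had the larger log2 fold change, the hosts' median was 0.04, and the correlation was 0.28 (Pearson) and 0.36 (Spearman). Of those 80, 5 had a host called higher and 5 a host called lower.

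The medians also differed by own sequence. The 59 members with more than 75% own sequence had a median of 0.69, with 9 called higher (15.25%) and 0 lower. Over all genes tested these shares were 4.66% and 6.77%. Gm33707 and Gm13357, among the 9, reached the summed count only through the Cmtr1 cKO libraries. Of these, 51 lie in introns and all 51 had a log2 fold change above 0 (median 0.73), while the 8 outside had a median of -0.08. The 20 intron members with over 25% to 75% had a median of 0.38, the 9 with over 0% to 25% had 0.05, and the 3 with none had -0.72. Outside same-strand genes, the 17 members with none had -0.99. Position and own sequence were not separated further.

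The level of the intron members had the same order over the 6 libraries as the share of reads outside exons. Their CPM summed to 261 and 244 in the controls, against 443, 428, 349 and 278 in Cmtr1 cKO 1 to 4. The median log2 ratio to the control mean (0.5 CPM added) was 0.05 and -0.05 in the controls and 0.73, 0.65, 0.40 and 0.12 in Cmtr1 cKO 1 to 4. With the share as a covariate, 0 of the 83 were called in either direction and the median was -0.02. In the same fit edgeR called 10 of the 78 outside members lower (median -0.32). Over all genes it called 320 higher and 346 lower. Since the share was higher in every Cmtr1 cKO library than in both controls, this fit cannot tell genotype from the share. The 9 called higher became 2 without Cmtr1 cKO 1 or 2, 3 without Cmtr1 cKO 3 and 36 without Cmtr1 cKO 4. All genes called higher went from 594 to 272, 228, 222 and 1940 in the fits without Cmtr1 cKO 1 to 4. Without control 1 or control 2 the median of the intron members was 0.71 and 0.52. Copies of ribosomal protein genes outside same-strand genes kept below the controls in each library, at median log2 ratios of -1.03, -1.04, -0.84 and -0.65. The ribosomal protein mRNA genes had -1.20, -1.07, -0.88 and -0.69 in the same libraries, as the plot of group medians by library shows.

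**Figure D3:**
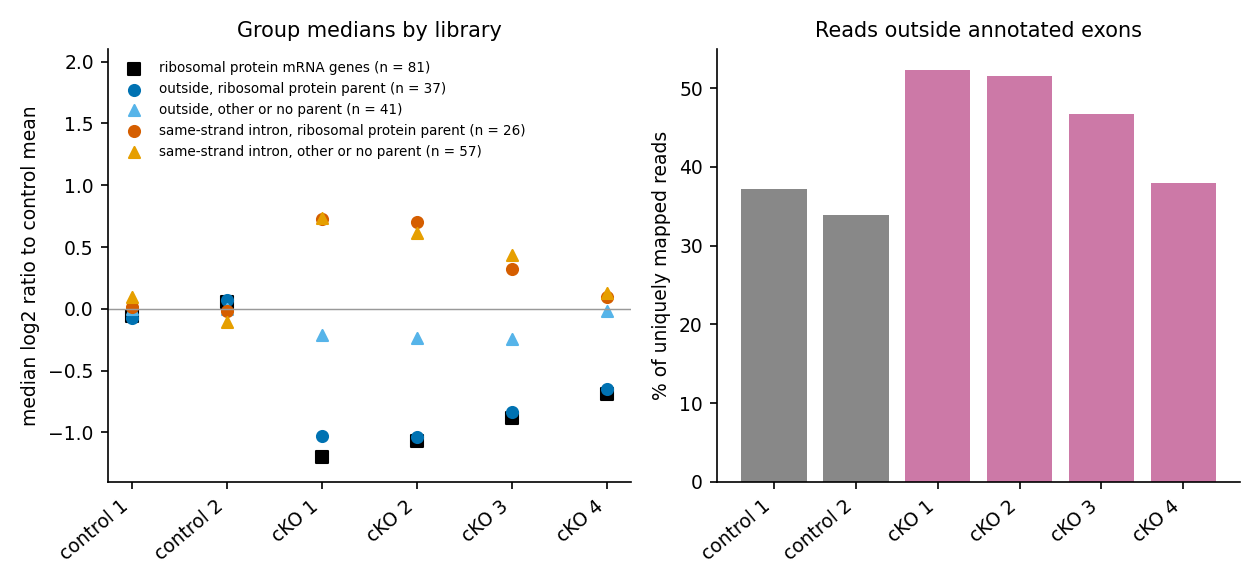
Left, the median log2 ratio to the control mean (vertical axis) of each group of pseudogenes and of the ribosomal protein mRNA genes in each library. Right, the percentage of uniquely mapped reads outside annotated exons, controls in grey and Cmtr1 cKO in pink. Intron groups lie highest in Cmtr1 cKO 1 and 2, where this percentage is 52.3% and 51.6%, and nearest the controls in Cmtr1 cKO 4, where it is 38.02%.

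Among the called rises in introns, Hmgb1-ps8 was the most abundant member of all by summed count. It is a copy of the chromatin protein gene Hmgb1 (95.8% identity, 78.2% own sequence) in an intron of Gm26740. It had 39.5 and 42.1 CPM in the controls, against 75.2, 74.5, 60.7 and 55.3 in Cmtr1 cKO 1 to 4. All Cmtr1 cKO libraries were above both controls. The means were 40.8 ± 1.9 (SD, n = 2) and 66.4 ± 9.95 (SD, n = 4), and the log2 fold change was 0.70 ± 0.13 (edgeR, Benjamini-Hochberg adjusted p = 0.00702). The host Gm26740 rose as well, by 0.66 (edgeR, Benjamini-Hochberg adjusted p = 0.0246), and Hmgb1 had -0.06.

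Gm11510, a copy of Rpl35a in an intron of Msi2, a gene of an RNA-binding protein, had 0.612 and 0.583 CPM in the controls, against 3.43, 2.99, 2.96 and 1.63 in Cmtr1 cKO 1 to 4. The groups did not overlap, at low counts. The log2 fold change was 2.18 ± 0.43, against 0.15 for Msi2 and -0.96 for Rpl35a. Gm11510 had 7 and 6 counts in the controls, and 37, 33, 28 and 19 in Cmtr1 cKO 1 to 4. At its control level in all 6 libraries it would not have reached the summed count that chose the members. Its choice thus rested on the Cmtr1 cKO libraries, so its place among the called rises is a description and no test is given for it. Gm13786, a copy of Rpl34 in an intron of Phf21a, had 1.57 and 1.65 CPM in the controls, against 6.11, 5.35, 3.60 and 2.84 in Cmtr1 cKO 1 to 4. Again no library overlapped, and the log2 fold change was 1.47 ± 0.36 (edgeR, Benjamini-Hochberg adjusted p = 0.0258), against 0.22 for Phf21a and -0.80 for Rpl34. The parents were called lower and the hosts were not called.

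The other called rises in introns were 0.85 to 1.17 on the log2 scale. They were Gm11196 (parent Pin4, host Nlk) at 1.17, Gm13357 (no parent kept, host Abi1) at 1.01, Gm42883 (parent Cox6c, host Pan3) at 1.01, Gm14239 (parent Cdv3, host Ncoa6) at 0.95, 2610024D14Rik (parent Atp5l, host Peli1) at 0.88 and Gm5421 (host Raet1e) at 0.85. In each, all 4 Cmtr1 cKO libraries were above both controls. Gm11196 had 12 counts in each control, and Gm13357 had 16 and 17. At those levels in all 6 libraries they too would not have reached the summed count. Their places among the called rises are likewise descriptions. Gm14239 rose while both its host and its parent were called lower, at -0.27 each. Of the rises named here, Hmgb1-ps8, Gm11510 and the rest in introns were not called without control 1, without control 2, or with the percentage of reads outside exons as covariate.

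**Figure D4:**
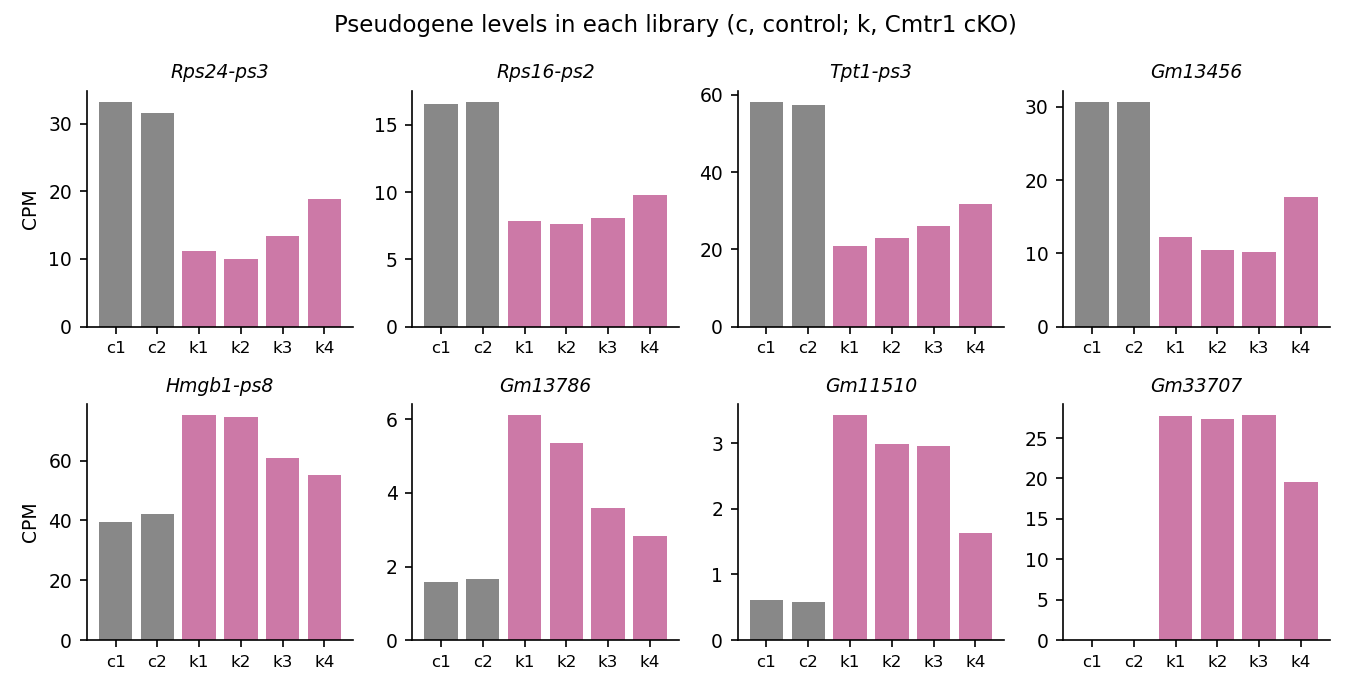
Level in CPM (vertical axes, each from 0) of 8 pseudogenes in control libraries 1 and 2 (grey) and Cmtr1 cKO libraries 1 to 4 (pink). The upper 4, outside same-strand genes, are lower in every Cmtr1 cKO library, Hmgb1-ps8, Gm13786 and Gm11510 are higher in every one, and Gm33707 has 0 in both controls.

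Pseudogenes of the same parent allow position to be compared at equal parent change, but own sequence differed between the copies as well and was not separated from position. Of the parents, 10 had members both outside same-strand genes and in introns, 8 of them ribosomal protein genes. In 8 of the 10, 6 of them ribosomal protein genes, every intron member had a higher log2 fold change than every outside one. The exceptions were Rps19 and Rps7. No test was made of these differences, and the choice by summed count leans toward rises. The members named next were taken for sharing a parent, after values were seen, and none of their intron copies was called.

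For Rps6, the outside copy Rps6-ps4 had -0.999 and the intron copies, whose stretches of sequence are printed above, had 0.52 (Gm15842, in Pptc7) and 1.47 (Gm13785, in Phf21a). Gm15842 had 4.28 and 3.98 CPM in the controls, against 7.59, 6.26, 5.29 and 4.56 in Cmtr1 cKO 1 to 4, all above both controls (edgeR, Benjamini-Hochberg adjusted p = 0.166). Gm13785 had 1.49 and 0.777 CPM in the controls, against 5.37, 4.26, 1.59 and 1.46 in Cmtr1 cKO 1 to 4, so that Cmtr1 cKO 4 overlapped the controls. For Rpl3, Rpl3-ps1 had -1.04 and Gm15712, in an intron of the transcription factor gene Zbtb20, had 1.02 ± 0.32. Gm15712 had 1.40 and 1.36 CPM in the controls, against 2.87, 3.27, 3.17 and 1.98 in Cmtr1 cKO 1 to 4, with no overlap. At their control levels in all 6 libraries, Gm13785 and Gm15712 would not have reached the summed count that chose the members. Their values are thus descriptions, and no test is given for them. The intron copies had 71.4% to 75.8% identity to their parents and 100% own sequence, whereas Rps6-ps4 and Rpl3-ps1 had 100% and 99.8% identity and 0% and 4.3% own sequence.

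For Rpl27a, Gm7536 outside (0% own sequence) was called at -1.11 and Gm19353 in an intron (74.5%) had 0.56. For Rpl38, Rpl38-ps2 outside (0%) was called at -0.86 and Gm19427 in an intron (100%) had 0.64. For Rps3a1, Rps3a2 outside (9.8%) was called at -0.77 and Gm13408 in an intron (30.6%) had 0.32. The parents had -0.99, -0.88 and -0.81. Rps19 ran the other way, with 0.12 for Rps19-ps3 outside (62.9% own sequence) and -0.82 for Rps19-ps6 in an intron (6.2%), and the 2 copies of Rps7 were alike, with 0.19 outside and 0.14 in an intron.

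**Figure D5:**
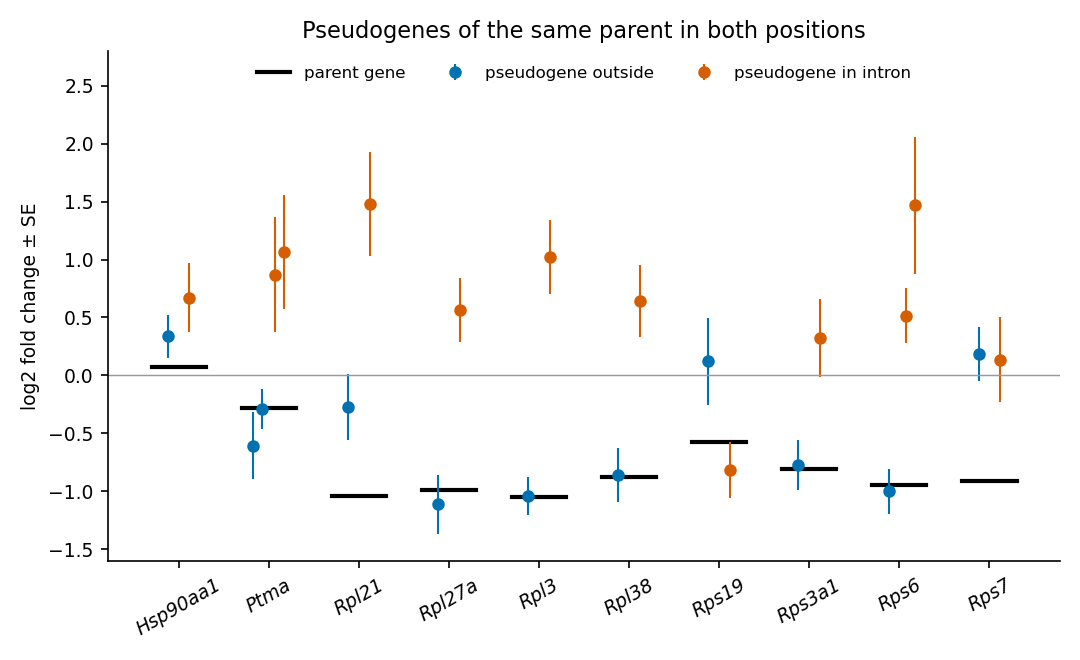
Log2 fold change ± SE (vertical axis) of pseudogenes outside same-strand genes (blue) and in introns (orange) for the 10 parents with both, with the parent gene as a black bar. Intron copies lie above outside copies for all parents but Rps19 and Rps7.

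Gm33707 stood apart from all other members. It is a copy of Eno1, a glycolytic enzyme gene (89.2% identity over its full length, 88.5% own sequence), of 569 bases at chr3:60769887-60770455 on the minus strand (GRCm38), with no other annotated gene over it. The stretch below covers coding bases 730 to 789 of Eno1 and the matching bases of Gm33707 (chr3:60770396-60770455, minus strand), where they differ by 1 base, in capitals.
Eno1: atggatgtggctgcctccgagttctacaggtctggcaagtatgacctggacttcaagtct
Gm33707: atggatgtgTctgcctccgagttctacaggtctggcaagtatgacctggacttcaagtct
Its counts were 0 and 0 in the controls and 299, 302, 263 and 227 in Cmtr1 cKO 1 to 4, which is 27.7, 27.4, 27.8 and 19.5 CPM. No read lay on the opposite strand in any library. Against a floor of 3 counts per library (0.291 CPM in control 2), the lowest Cmtr1 cKO library was at least 67.0-fold higher, and the floor covers counting error only. It passed the summed count and the filter on low counts through the Cmtr1 cKO libraries alone, so that it had to differ; its place among the 11 called higher is a description and no test is given for it. Of the 12748 genes tested it was the 1 gene with a count of 0 in both controls. Eno1 had 302 and 322 CPM in the controls, against 276, 276, 292 and 333 in Cmtr1 cKO 1 to 4, with -0.08 ± 0.09 (edgeR, Benjamini-Hochberg adjusted p = 0.560).

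The tested genes within 1000000 bases of Gm33707 showed no change of that size. Mbnl1, a splicing regulator gene, had a log2 fold change of 0.25 (edgeR, Benjamini-Hochberg adjusted p = 0.150) and Rap2b, a small GTPase gene, -0.35 (edgeR, Benjamini-Hochberg adjusted p = 0.0272). Gm37488, of unknown coding status, rose by 0.76 (edgeR, Benjamini-Hochberg adjusted p = 0.0340), and Gm37589 had 1.38 (edgeR, Benjamini-Hochberg adjusted p = 0.115). Gm37696 and B430305J03Rik had 0.03 and 0.02. All 6 had counts in both controls.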

How the data were processed

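The deposited values are raw counts of reads per gene in STAR's gene table, 1 file per library, and the gene counts carry no normalization by the authors. The submitters' processing notes name STAR 2.5.2b and edgeR as tools, with the builds mm10 and GRCm38. The gene annotation behind the counts is not given in these sources. STAR counts reads that map to 1 place and touch 1 gene. Rows that name no gene held 52.1% to 62.0% of reads and were left out. The column of reads on the gene's strand was used, since it held 18.7 to 22.7 times the reads of the opposite one, and 5.57 times in Cmtr1 cKO 3, which stands apart and had 946687 ambiguous reads. Gene identifiers without version were matched to GENCODE vM21 (46488 of 46983).

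Genotype was tested over all genes with edgeR 4.0.16 in R 4.3.3 (filterByExpr, TMM, robust glmQLFit, glmQLFTest, Benjamini-Hochberg), and the code was tested on simulated data. The spread shared by the genes was a biological coefficient of variation of 9.59%, and the interval of a share and the floor of 3 counts cover counting error only. Parents came from blastn 2.17.0 against GENCODE protein-coding transcripts. Own sequence was judged against other genes' transcripts, as no genome sequence was used. Alternatives were RLE size factors, DESeq2 1.42.0, no filter, unstranded counts, each library left out, a covariate, a replicate block, other count thresholds, and CT010467.1 left out. Another fit, replicates 1 and 2 of both groups with no block, was chosen after seeing the data. Named members are, in each name set, up to 10 called rises and 10 called falls of largest size and the 5 most abundant, plus 3 on each side of the threshold; 1 member that the rule names is not reported here. Members and lists were chosen with earlier results of these data known.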

Additional observations from a re-analysis of the deposited data

Results flagged for a closer look

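Of the 38 named members examined, 4 had a Cmtr1 cKO library far from the other 3, where chance gives about 1 in 20. The gap to the nearest library, as a fraction of the range over the 4 libraries, was 0.948 for Gm33707, 0.893 for Gm10288 and 0.861 for Gm12250, in each case with Cmtr1 cKO 4 apart. Gm33707 had 19.5 CPM there and 27.4 to 27.8 in the others, Gm10288 4.47 against 3.61 to 3.70, and Gm12250 34.3 against 23.1 to 24.6. For Gm5421 it was 0.95, with 5.37 CPM in Cmtr1 cKO 1 and 4.17 to 4.23 in the others.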

How the results depend on the processing

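RLE size factors kept all 44 calls of members, and DESeq2 called 40, of which 35 were shared. The 44 became 12, 5, 29, 26, 27 and 84 without control 1, control 2 and Cmtr1 cKO 1, 2, 3 and 4; with 1 control left, that library was assumed to vary like the others. Over these leave-one-out fits, ribosomal protein pseudogenes called higher ran from 0 to 1 and lower from 2 to 16, other pseudogenes higher from 1 to 38 and lower from 2 to 29, intron members higher from 0 to 36 and lower from 0 to 4, outside members higher from 1 to 3 and lower from 4 to 40, and all genes higher from 39 to 1940 and lower from 154 to 1940. With no filter, ribosomal protein pseudogenes called higher were 1 and lower 16. Called higher in that fit were 23 others, 21 intron members and 1167 of all genes. Unstranded counts gave 7 other pseudogenes and 5 intron members higher, and leaving out members that share a same-strand gene body gave 2 others higher. In the fit with the percentage of reads outside exons as covariate, ribosomal protein pseudogenes called lower were 5. Others were 2 higher and 5 lower, intron members 0 and 0, and outside members 10 lower. Ribosomal protein mRNA genes were 1 higher and 75 lower, and all genes 320 higher and 346 lower. Deviations of same-numbered libraries from their group means had a correlation of -0.00. With only replicates 1 and 2 of each group compared, this is a single value and cannot show whether the numbers pair them. With the replicate block, on replicates 1 and 2, ribosomal protein pseudogenes were 1 called higher and 16 lower. Others were 47 higher and 31 lower, intron members 45 and 4, and all genes 2431 and 2399. The same 4 libraries without the block gave 1 and 16, 44 and 31, 42 and 4, and 2342 and 2339. Uncalled members changed sign: Gm7964 to 0.029 without control 1, 0.049 without Cmtr1 cKO 1, 0.021 without Cmtr1 cKO 2 and 0.27 with the covariate (-0.10 without Cmtr1 cKO 4, the lowest with 1 library left out), Rps19-ps3 to -0.11 without Cmtr1 cKO 1, and Gm8738 to -0.65 with the covariate. The cause of these shifts was not tested. Depth limits single members. On the log2 scale the SE was 0.31 for Gm14681 (summed count 106) and 0.47 for Gm20691 (100). It was 0.54 for Gm11969 (117) and 0.60 for Polr2k-ps (120).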
